A study of Homo sapiens with 3 samples.

Results

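C4-2B MDVR cells were compared directly with C4-2B AbiR cells to ask how a subline selected in enzalutamide differed from a subline selected in abiraterone acetate. The C4-2B cell line descends from LNCaP prostate cancer cells and grows without added androgen. The C4-2B MDVR cells were kept in 20 µM enzalutamide and the C4-2B AbiR cells in 10 µM abiraterone acetate, so that both sublines share the C4-2B background and continuous exposure to a drug. Each line was read on 1 Affymetrix HG-U133 Plus 2.0 array, and these 2 of the 3 arrays of the series were used here, without the parental array. The comparison covered every probe set with a gene symbol, 42892 of 54675, of which 41091 were annotated to 1 gene and gave values for 19775 genes. No probe set was selected by its value. Each subline is a single selected population, and with 1 array a side replicate error could not be estimated and no difference was tested. Drug, time in culture, clonal descent and array cannot be told apart in this design, and in RNA from a whole culture, fewer cells of a kind and less RNA per cell cannot be told apart either.

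The drugs act at different steps of the same pathway. Enzalutamide binds the androgen receptor and blocks its activation by androgen, whereas abiraterone inhibits CYP17A1, the enzyme that opens the route from pregnenolone and progesterone to the androgens. The active receptor drives the kallikrein genes and other secretory genes of the luminal prostate cell, and androgens are removed from prostate cells largely by glucuronidation.

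The values are log2 signals that had been centred within each probe set, so that 0 is the middle of that probe set over the arrays used for centring. They carry no expression level, and only the difference between arrays within a probe set can be read. The value of a gene is the mean over its probe sets, ± gives the SD between the probe sets as a technical spread, and all differences are MDVR minus AbiR on the log2 scale, where 1 is a 2-fold difference. The luminal, basal, stromal and leukocyte markers could be compared between the arrays, but their presence or absence could not be read from such values. Spiked bacterial controls, 45 probe sets in all, gave differences with an SD of 0.12, the largest being 0.34 in absolute size. The SD between probe sets of 1 gene had a median of 0.21 over 10523 genes. The 3′ minus 5′ signal of control transcripts differed by −0.10 for ACTB and −0.11 for GAPDH between the arrays, and its part in the results was not tested.

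C4-2B MDVR cells exceeded C4-2B AbiR cells by at least 2-fold in 173 of the 19775 genes (0.875%) and fell short of them by as much in 224 (1.13%), together 397 genes or 2.01%. For probe sets with a symbol the shares were 1.05% higher and 1.94% lower, together 2.99%. The difference was under 0.5 in either direction for 90.7% of genes, and the median over all genes was 0.054. Of the 397 genes, 229 were read by a single probe set and 160 by several that all differed in the same direction. The MDVR array held the value further from the centre for 148 of the 173 higher genes and for 174 of the 224 lower ones. Over all probe sets, too, the MDVR values were more widely spread, with an SD of 0.32 against 0.19 for AbiR. Both sublines lay more than 1 from the centre, on opposite sides, for only 4 of the higher and 9 of the lower genes. These counts depend on the other arrays that set the centre, and in 17.7% of all probe sets the 2 values mirror each other around 0 by the centring alone.

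The largest positive difference was that of GCG, which encodes proglucagon, the precursor of glucagon and the incretin GLP-1. Its single probe set stood at 5.999 in MDVR and at −0.11 in AbiR, a 68.9-fold difference. FSTL5, a secreted follistatin-like protein, stood at 5.43 and 0.11 (39.9-fold higher in MDVR). SYT4, a synaptotagmin of secretory vesicles, stood at 4.80 and −0.40 (36.7-fold). In each of these genes the AbiR array was near the centre, and the MDVR array stood far above it. The death-associated kinase gene DAPK1 was read by 2 probe sets with differences of 3.44 and 5.95, and averaged 4.54 in MDVR and −0.15 in AbiR (25.8-fold).

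RND3, an atypical small GTPase that opposes actin contractility, differed from these genes in that both arrays stood away from the centre, at 2.71 in MDVR and −1.87 in AbiR (24.0-fold). LAMB1, the laminin beta-1 chain of basement membranes, stood at 3.88 and 0.08, with its 2 probe sets at differences of 3.57 and 4.02. HGF, the ligand of the MET receptor, was read by 5 probe sets that were all higher in MDVR, from 1.55 to 6.30, with a mean of 3.76 ± 1.69. CD200, a membrane glycoprotein that signals to myeloid cells, differed by 3.15 ± 1.14 over 2 probe sets. Other genes with several probe sets in 1 direction were ACSM3, a medium-chain acyl-CoA synthetase (2.55 ± 0.25), the bile salt export pump ABCB11 (1.92 ± 0.61), the transcriptional cofactor DACH1 (1.97 ± 1.05) and ZNF385B (1.99 ± 0.13). For NECTIN3, a cell adhesion molecule, the 2 probe sets disagreed in size, at 0.27 and 4.21.

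**Figure D1:**
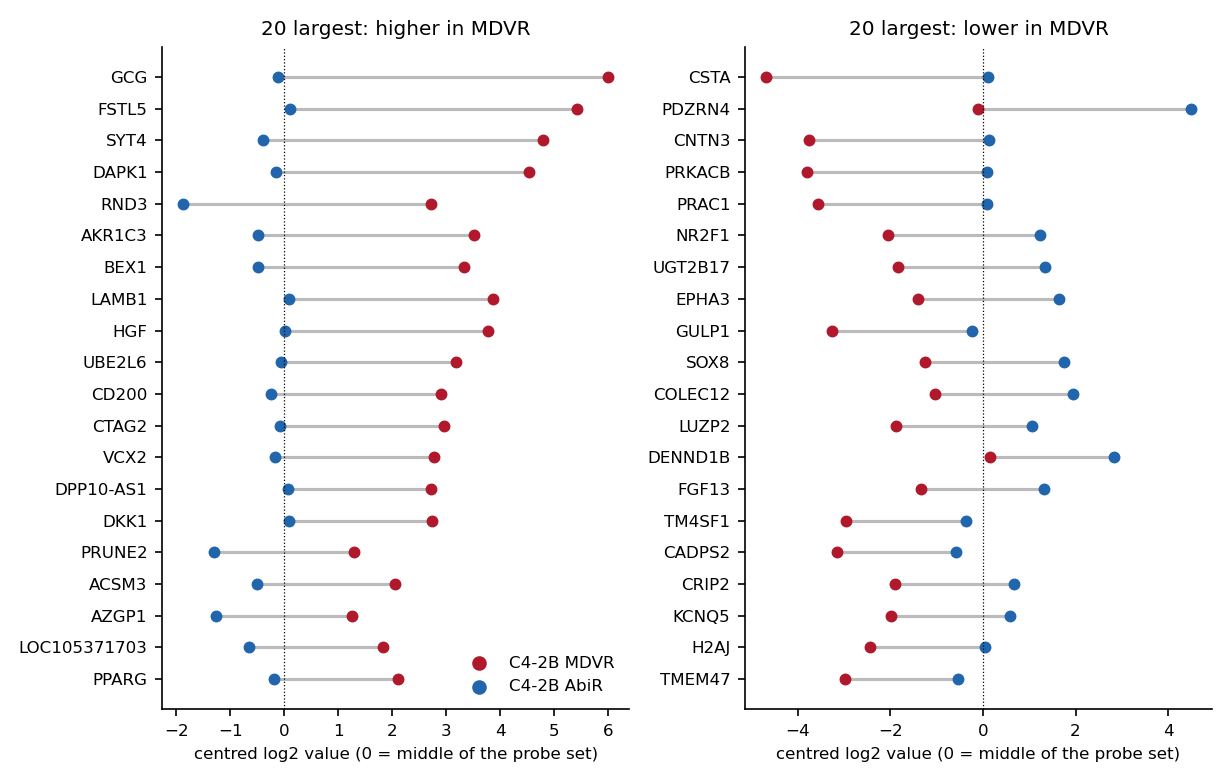
Centred log2 values of MDVR (red) and AbiR (blue) for the 20 genes with the largest positive and the 20 with the largest negative difference, each the mean of the gene's probe sets; there is 1 array per line and no error bar. GCG reaches 5.999 on the MDVR array, and PDZRN4 reaches 4.49 on the AbiR array.

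Among the genes lower in C4-2B MDVR, CSTA, which encodes the cysteine protease inhibitor cystatin A, had the largest difference. It stood at −4.68 in MDVR and 0.10 in AbiR (27.6-fold lower in MDVR). PDZRN4, a PDZ and RING finger protein, showed the reverse arrangement, at −0.11 in MDVR and 4.49 in AbiR (24.3-fold lower in MDVR). The adhesion protein gene CNTN3 stood at −3.76 and 0.13. The orphan nuclear receptor gene NR2F1 stood at −2.06 in MDVR and 1.23 in AbiR, and the transcription factor gene SOX8 at −1.25 and 1.76, so that for these genes the arrays departed from the centre in opposite directions. The scavenger receptor gene COLEC12 was lower by −2.98 and the fibroblast growth factor homologue gene FGF13 by −2.66, each by a single probe set.

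Several genes in this direction were read by probe sets that differed widely in size. For EPHA3, an ephrin receptor kinase, 2 probe sets gave −5.22 and −3.75 and the third −0.19. GULP1, an adapter of phagocytic uptake, was read by 5 probe sets with values from −5.68 to −0.12, and the surface protein gene TM4SF1 by 5 with values from −4.48 to −0.22. The potassium channel gene KCNQ5 gave −4.32 and −0.83. A mean over such probe sets understates the probe sets that differed most. By contrast, the 6 probe sets of DENND1B, an exchange factor of vesicle traffic, lay between −4.13 and −1.93, and the stress kinase gene MAP3K5 gave −2.24 ± 0.40 over 2. The range between probe sets reached at least 3 in 16 genes. PATJ, a polarity scaffold, was the only gene with 1 probe set at least 2-fold higher and another at least 2-fold lower (1.31 and −1.29).

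In the androgen axis, the secretory genes did not move as 1 group. KLK3, which encodes prostate-specific antigen, averaged −0.84 in MDVR and 0.06 in AbiR, a difference of −0.90 ± 0.93 over 3 probe sets that gave −1.76, −1.04 and 0.09. Its neighbours on chromosome 19 pointed the other way. KLK2 differed by 0.83 ± 0.77 over 4 probe sets, from 0.09 to 1.63, and KLK4 by 1.04 ± 0.82 over 5 probe sets, from 0.32 to 2.31. Of 14 kallikreins measured, KLK4 alone was at least 2-fold apart, 13 were above 0, and the median was 0.14 against 0.054 over all genes. Of 34 androgen-induced genes outside the kallikreins, C1orf116 (1.26 ± 0.24, 3 probe sets) and the secreted protease gene ADAMTS1 (1.07 ± 0.06, 2 probe sets) were at least 2-fold higher, and the metalloreductase gene STEAP2 was lower at −1.24. TMPRSS2, a membrane protease induced by androgen, differed by 0.27 ± 0.20 and FKBP5, a co-chaperone induced by androgen and glucocorticoid, by 0.13 ± 0.22, both within the range of the spiked controls. Of 12 androgen-repressed genes 9 were below 0, and their median of −0.32 was the lowest of all 68 lists. By at least 2-fold 2 of them were lower and 1 higher, against 1.13% and 0.875% of all genes. They ranged from UGT2B17 at −3.18 to OPRK1 at 1.59.

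Luminal markers stood on both sides, with 4 of 28 higher and 3 lower by at least 2-fold, where 2.01% of all genes were that far apart. PRUNE2, a gene that also hosts the prostate transcript PCA3, stood at 1.30 in MDVR and −1.30 in AbiR, a difference of 2.59 ± 1.29 over 3 probe sets. AZGP1, a secreted zinc-binding glycoprotein of the prostate, stood at 1.26 and −1.26 (5.71-fold higher in MDVR). The peptidase gene DPP4 stood at 0.93 and −0.96 (1.88 ± 0.40, 3 probe sets) and the surface marker gene CD24 at 0.998 and −0.43 (1.43 ± 0.35, 6 probe sets). In contrast, PRAC1, a small nuclear protein of prostate and large bowel, stood at −3.57 and 0.08 (12.6-fold lower in MDVR), and the prostate stem cell antigen gene PSCA was lower by −1.51. The median of the list was 0.014, so that the higher and lower members left no shift in 1 direction. The pioneer factor gene FOXA1 differed by −0.76, with 1 probe set at −0.016 and the other at −1.51.

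Enzymes that make and remove androgens held some of the widest gaps. AKR1C3, which reduces androstenedione to testosterone, stood at 3.52 in MDVR and −0.49 in AbiR, 16.1-fold higher in MDVR by its single probe set. AKR1C2, a 3-ketosteroid reductase that inactivates dihydrotestosterone, was read at 2.28, 2.60 and 0.30 (1.73 ± 1.25). AKR1C1, its closest paralog, was read by 5 probe sets at 0.93 ± 1.22, of which 2 gave 1.62 and 2.74 and the other 3 between −0.055 and 0.23. The high probe sets of AKR1C1 and AKR1C2 can take up transcripts of their paralogs, and which member they read cannot be settled from the array. UGT2B17, which glucuronidates testosterone and dihydrotestosterone, stood at −1.84 in MDVR and 1.34 in AbiR (9.05-fold lower in MDVR). Its relatives UGT2B15 (−0.18 ± 0.22, 3 probe sets) and UGT2B28 (−0.35) differed far less. CYP17A1, the target of abiraterone, differed by 0.39 ± 0.12 over 2 probe sets, HSD3B1 by 0.64 with probe sets at −0.14 and 1.41, and SRD5A1, a steroid 5-alpha reductase, by −0.45 ± 0.09 over 3 probe sets. Of 44 genes of steroid synthesis, conversion and uptake, only PAPSS1, which makes the sulfate donor, was at least 2-fold apart (1.15). The glucocorticoid receptor gene NR3C1 differed by 0.037 ± 0.13 over 5 probe sets, and of 31 genes in its list DDIT4, a stress-induced inhibitor of mTORC1, alone passed 2-fold (1.37).

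Histone genes formed the list with the most members on 1 side. Of 33 measured, 10 were at least 2-fold lower in C4-2B MDVR and 0 at least 2-fold higher, against 1.13% and 0.875% of all genes, and the median was −0.22. Histones package DNA into nucleosomes, and most of their genes lie in clusters and are transcribed in S phase. The members that were lower were mostly H2A and H2B genes, and so was most of the list when H2A variants are counted. H2AJ, a variant H2A on chromosome 12, stood at −2.43 in MDVR and 0.05 in AbiR (−2.48 ± 1.13, 4 probe sets). H2BC21 stood at −1.83 and 0.25, H2AC6 at −2.33 and −0.34, H2BC12 at −1.90 and −0.11 and H2BC4 at −2.07 and −0.30. In these genes the MDVR array was far below the centre, while the AbiR array stood within 0.5 of it. The linker histone gene H1-2 was lower by −1.46, H2BC9 by −1.16, H2BC5 by −1.09 ± 0.28, H2BC6 by −1.04 and H4C8 by −1.02 ± 0.26. Other cluster members hardly differed, such as H2BC11 (−0.22), H2BC14 (−0.090), H1-3 (0.0024), H2BC17 (0.15) and H3C3 (0.22).

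Probe sets that read several histone genes at once were not part of these values, and those at least 2-fold apart were all lower in MDVR. Of 20 probe sets that read H2B genes alone, 10 were at least 2-fold lower and 0 higher, with a median of −1.01 and a highest value of 0.43. Only 5 of the 20 read several genes, and the others had already entered the gene values above. Among them, 3 that read H2BC4, H2BC6, H2BC7, H2BC8 and H2BC10 together gave −1.58, −1.38 and −1.06. A probe set shared by 10 H3 genes gave −2.75, while the median over the 10 H3 probe sets was −0.16. Other lists tied to S phase held no member at least 2-fold apart, where 2.01% of all genes were that far apart. They were 60 genes of DNA replication and nucleotide synthesis and 71 genes of the cell cycle and mitosis. Their medians were 0.051 and −0.054, against 0.054 over all genes. Of the replication genes 25 were below 0 and of the cell cycle genes 43, against 7895 of all 19775 genes.

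**Figure D2:**
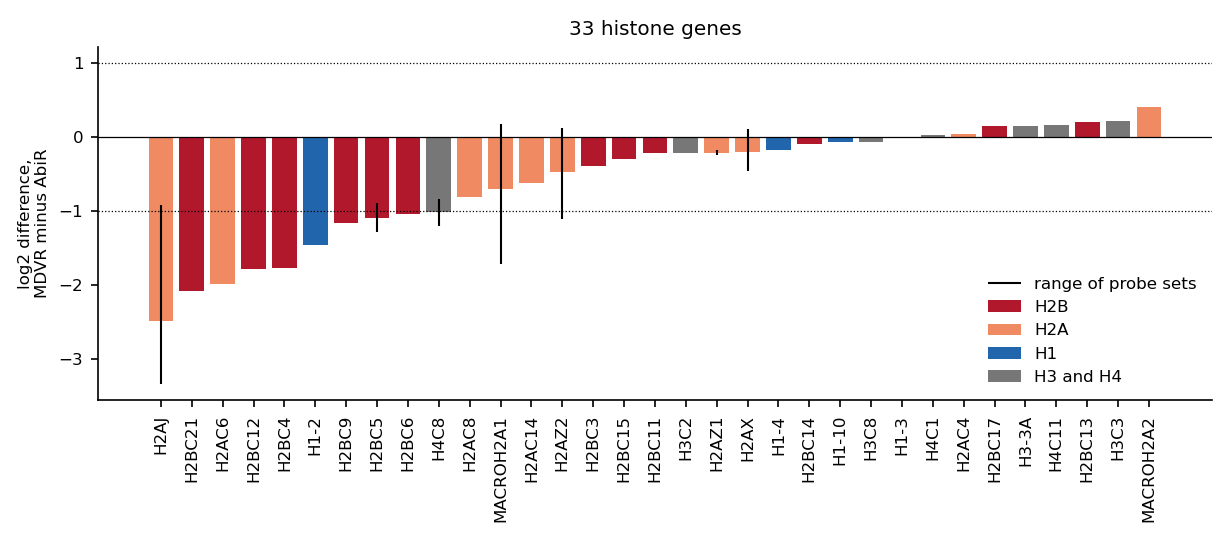
Log2 difference, MDVR minus AbiR, for the 33 measured histone genes in order of size, coloured by histone class. Black lines give the range over probe sets where a gene has more than 1, and dotted lines mark a 2-fold difference; H2AJ is lowest at −2.48 and MACROH2A2 highest at 0.41.

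Because these genes differed within the same clusters, the stretches before their RefSeq start sites are shown for 4 of the genes that were at least 2-fold lower and for H2BC11, which was not. The 130 bases before the start are given 5′ to 3′ on the strand of the gene, in build GRCh38.p14, with capitals for the octamer ATTTGCAT or its reverse complement ATGCAAAT, the element bound by POU-domain factors and known from H2B promoters.
H2BC21, chr1:149886683-149886812, minus strand: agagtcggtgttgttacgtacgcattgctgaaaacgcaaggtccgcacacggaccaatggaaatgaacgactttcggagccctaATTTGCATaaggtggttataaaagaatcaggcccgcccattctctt
H2BC12, chr6:27146859-27146988, minus strand: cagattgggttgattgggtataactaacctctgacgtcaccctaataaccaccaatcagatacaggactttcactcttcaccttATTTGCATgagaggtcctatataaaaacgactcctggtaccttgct
H2BC4, chr6:26123927-26124056, minus strand: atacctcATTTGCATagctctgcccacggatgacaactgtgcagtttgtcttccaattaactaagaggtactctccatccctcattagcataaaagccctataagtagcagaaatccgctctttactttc
H2AC6, chr6:26124042-26124171, plus strand: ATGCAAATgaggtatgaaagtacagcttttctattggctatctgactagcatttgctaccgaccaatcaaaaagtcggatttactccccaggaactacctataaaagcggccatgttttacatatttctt
H2BC11, chr6:27132796-27132925, minus strand: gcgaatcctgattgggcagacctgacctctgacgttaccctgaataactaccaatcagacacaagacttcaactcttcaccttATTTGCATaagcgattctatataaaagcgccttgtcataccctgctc
The octamer begins 46 bases before the start of H2BC21 and of H2BC12, and 47 bases before that of H2BC11. H2BC4 and H2AC6 are transcribed away from each other, and a single octamer at chr6:26124042-26124049 lies upstream of both, which differed by −1.78 and −1.99.

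The octamer, searched on both strands over 250 bases before the start, occurred in 13 of 32 histone promoters with an entry and in 573 of 35116 promoters at large (1.63%). Among clustered H2A and H2B genes it occurred in 6 of 7 that were at least 2-fold lower and in 7 of 9 that were not. TATAAA occurred in 6 of 7 and 8 of 9 of the same genes and in 10.7% of all promoters. CCAAT occurred in 7 of 7 and 9 of 9 and in 32.0% of all promoters. These matches describe the sequence and nothing was measured on binding.

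Cancer-testis antigens, which are normally restricted to germ cells and are often encoded on the X chromosome, were higher in C4-2B MDVR for a few families. Of 40 measured genes, 4 were at least 2-fold higher and 0 lower, against 0.875% and 1.13% of all genes. The median was 0.20, against 0.054 over all genes. CTAG2 stood at 2.96 in MDVR and −0.079 in AbiR (3.04 ± 0.39, 2 probe sets). SSX3 differed by 2.29 ± 1.69 over 3 probe sets and SSX1 by 1.89 with probe sets at 0.33 and 3.45, and the testis bromodomain gene BRDT by 1.71. Probe sets that read several members extended this. Of 14 probe sets of the SSX family, 10 were at least 2-fold higher, from 0.33 to 4.22 over all 14, and the 3 that read SSX2 and SSX2B together gave 3.89, 3.95 and 4.22. All 5 CTAG probe sets were higher, from 1.78 to 3.31. VCX2, a testis gene of the X chromosome outside the list, gave 2.93 and 2.94. Most of these probe sets can read several paralogs, so that the family rather than the member is what was measured. No probe set of the MAGEA, GAGE or XAGE families was at least 2-fold apart. The 11 MAGEA probe sets lay between −0.41 and 0.53. The 5 GAGE probe sets were all above 0, from 0.18 to 0.83 with a median of 0.76, and so were the 4 XAGE probe sets, from 0.12 to 0.96 with a median of 0.43.

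**Figure D3:**
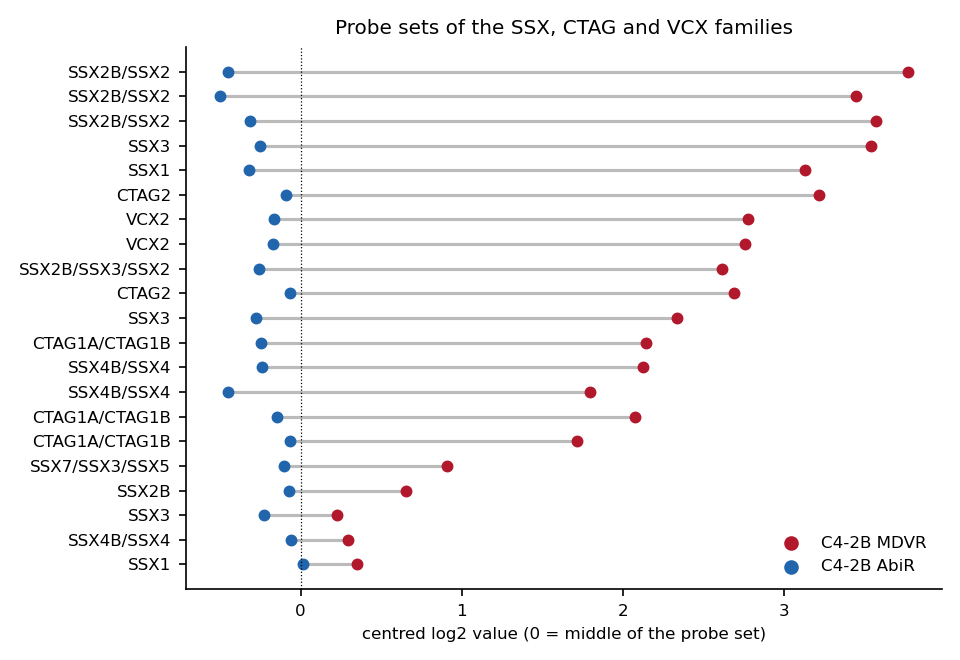
Centred log2 values of MDVR (red) and AbiR (blue) for every probe set that reads only SSX, CTAG or VCX genes, labelled by the genes it reads and ordered by difference. The MDVR value is the higher of the pair in all 21, and the largest gap is 4.22.

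The BEX and TCEAL families, small proteins encoded side by side on the X chromosome, had the highest median of all 68 lists examined, 0.59 over 12 genes. BEX1, an adapter of neurotrophin signalling, stood at 3.34 in MDVR and −0.49 in AbiR (14.2-fold). TCEAL3 (1.28), BEX5 (1.26) and BEX4 (1.05) were also at least 2-fold higher, where 0.875% of all genes were. TCEAL9 (0.97) lay just below 2-fold, and TCEAL2 (0.61) and BEX2 (0.57) lay well below it. TCEAL4 was the only member below 0 (−0.061). Each gene of this list was read by a single probe set, so that no spread between probe sets is available.

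Among neural and neuroendocrine genes, differences of at least 2-fold were limited to a few members. Over all genes 0.875% were that much higher in MDVR and 1.13% lower. Of 60 neuroendocrine markers and lineage factors, SYT4, the homeobox factor gene NKX2-2 (1.61) and the SOX factor gene SOX4 (1.39 ± 0.92, 6 probe sets) were at least 2-fold higher, and 0 were lower. The median was 0.16, against 0.054 over all genes. Of the 60 genes 47 were above 0, against 11842 of all 19775 genes. The vesicle protein genes CHGA (0.27) and SYP (−0.14) and the enolase gene ENO2 (−0.053) differed little between the sublines. Among 61 neuropeptides, hormones and their receptors, GCG and the opioid receptor gene OPRK1 (1.59 ± 0.82, 2 probe sets) were higher in MDVR and the neurotensin gene NTS was lower, at 0.98 in MDVR and 2.54 in AbiR (−1.56). The receptors of the proglucagon products, GLP1R (0.23) and GCGR (0.087), stayed close to 0.

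Among 82 axon guidance and synaptic adhesion genes, 3 were higher and 3 lower at 2-fold, against 0.875% and 1.13% of all genes. The ephrin ligand gene EFNB2 (1.87 ± 0.88, 2 probe sets), the teneurin gene TENM2 (1.68) and the semaphorin gene SEMA6A (1.49 ± 0.97, 5 probe sets) were higher in MDVR, whereas CNTN3, EPHA3 and SEMA3C (−1.21 ± 0.42, 2 probe sets) were lower. EPHA3, an ephrin receptor of class A, and EFNB2, an ephrin of class B, stood on opposite sides and are not taken here as receptor and ligand. Microtubule proteins were also split, with MAP2 at 1.45 ± 0.43, the tubulins TUBB4A at 1.23 and TUBB6 at 1.07, and MAP1B, an axonal microtubule protein, at −2.27 ± 0.9997 over 3 probe sets.

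Cyclic nucleotide signalling differed in named parts. Soluble guanylate cyclase, the receptor of nitric oxide, is a dimer, and both of its chains were higher in MDVR by the same amount. GUCY1A1 stood at 1.02 in MDVR and −1.11 in AbiR (2.14 ± 0.80, 4 probe sets). GUCY1B1 stood at 0.86 and −1.28 (2.14 ± 0.32, 2 probe sets). PRKACB, a catalytic subunit of protein kinase A, stood at −3.80 in MDVR against 0.090 in AbiR (−3.89 ± 0.36, 3 probe sets, 14.8-fold). The paralog PRKACA differed by −0.27 only. GNAI1, the inhibitory G protein alpha subunit, stood at −0.32 and 1.75 (−2.07 ± 0.34, 2 probe sets), followed by the G protein beta subunit gene GNB4 (−1.47 ± 1.03, 3 probe sets) and RGS17, which shortens G protein signals (−1.27). The other 57 of 63 genes in the list were within 2-fold, where 2.01% of all genes were at least 2-fold apart, and the list median was 0.069.

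Among growth pathways, the widest gaps were those of secreted ligands and inhibitors. In the Wnt list of 64 genes, DKK1, a secreted inhibitor of Wnt co-receptors, stood at 2.74 in MDVR and 0.092 in AbiR (6.27-fold). The polarity gene VANGL2 (1.504) and the nuclear effector gene LEF1 (1.07 ± 0.79, 3 probe sets) were higher as well, and the Wnt inhibitor gene APCDD1 was lower at −1.30 with probe sets at −2.54 and −0.055. In the TGF-beta and BMP list of 58 genes, FSTL5, the pseudoreceptor gene BAMBI (1.86) and the inhibin chain gene INHBE (1.07) were at least 2-fold higher and 0 lower. In a list of 54 genes, mainly receptors and ligands of the EGF and FGF classes, HGF, the MET ligand, was higher. FGF13, the feedback inhibitor gene SPRY2 (−1.58) and EGF (−1.34) were lower. In the insulin-like growth factor axis, the binding protein gene IGFBP3 was lower in MDVR, at −0.87 against 0.87 (−1.74 ± 0.059, 2 probe sets). MYC stood at 0.57 and −0.46, a difference of 1.03, and no other member of its network passed 2-fold.

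Interferon-stimulated genes gave a mixed picture around 1 large member. UBE2L6, the conjugating enzyme that attaches the ubiquitin-like protein ISG15, stood at 3.18 in MDVR and −0.054 in AbiR (9.42-fold). The RNA sensor gene IFIH1 differed by 1.34 ± 0.93 over 3 probe sets. The remaining 50 of 52 genes were within 2-fold, from RSAD2 at −0.90 to IFITM1 at 0.99, and the ISG15 gene itself was at 0.18. The list median was 0.17. Of the inducible proteasome subunits, PSMB8 was higher (1.14), whereas PSMB9 (−0.64) and PSMB10 (−0.29) were not. The stress ligand gene MICB was lower at −1.04. Cytokine genes pointed both ways, with TSLP at −0.60 in MDVR and 1.74 in AbiR (−2.34) and the chemokine gene CCL20 at 0.60 and −0.60 (1.20).

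The study's subject is the turnover of proteins, and few of the genes listed here for its machinery differed much between the sublines. In all, 8 lists covered ubiquitin ligases, deubiquitinases, constitutive proteasome subunits, heat shock proteins, the unfolded protein response, autophagy and lysosome. They held 365 different genes. Of these 0 differed by at least 2-fold, against 2.01% of all genes, and the median was 0.022. The inducible proteasome subunit gene PSMB8 (1.14) stood in another list. STUB1, the ubiquitin ligase that works with HSP70, stood at −0.25 in MDVR and 0.044 in AbiR, and its 3 probe sets gave −0.30, −0.29 and −0.28. HSP90AA1 differed by 0.14 ± 0.16 over 4 probe sets. The 5 probe sets of the inducible HSP70 genes HSPA1A and HSPA1B and of HSPA1L lay between −0.042 and 0.29. Within the group, HSPH1, a nucleotide exchange factor of HSP70, was lowest in its list (−0.90 ± 0.48, 3 probe sets) and HSPA4L highest (0.82). The 95 ubiquitin ligases of the list ranged from NEDD4L at −0.86 ± 0.80 to RNF128 at 0.71, with MDM2 at −0.0014 and XIAP at −0.44. The lists do not hold every gene of this kind. The RING finger genes PDZRN4 (−4.60), MYCBP2 (−1.53) and LNX2 (−1.21) lay outside them, and such genes were not counted in either direction. UBE2L6 was the only one of 29 ubiquitin-activating and conjugating enzymes past 2-fold.

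**Figure D4:**
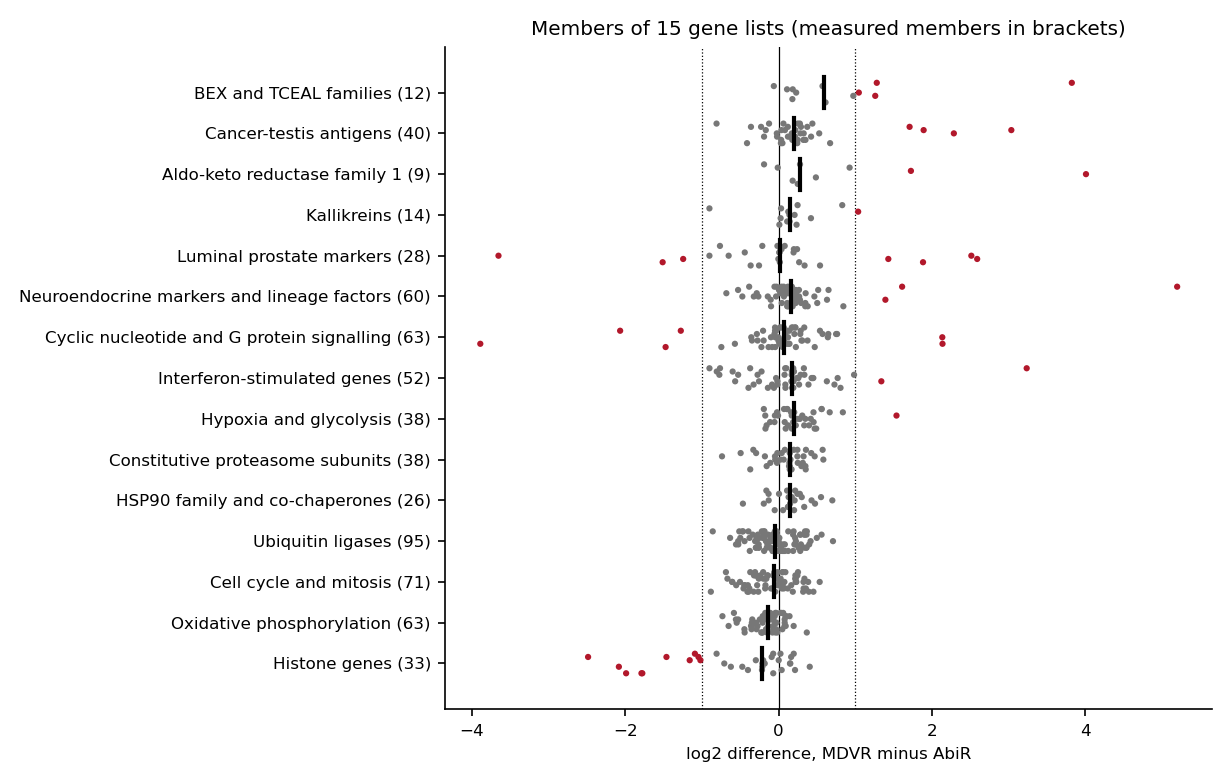
Log2 difference, MDVR minus AbiR, of each measured member of 15 gene lists. Points at least 2-fold apart are red, black bars are list medians, the number of measured genes stands in brackets, and dotted lines mark 2-fold; the medians run from −0.22 for histone genes to 0.59 for the BEX and TCEAL families.

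In metabolism, 63 genes of oxidative phosphorylation had a median of −0.13, with 50 below 0, while the 38 genes of hypoxia and glycolysis had a median of 0.20, with 29 above 0. Over all genes 7895 of 19775 were below 0. No respiratory chain gene was at least 2-fold apart, and COX7B was lowest at −0.73. In glycolysis only the aldolase gene ALDOC passed 2-fold (1.54), and VEGFA, a hypoxia target, was next at 0.84. In lipid metabolism, PPARG, the nuclear receptor of fat storage, stood at 2.10 in MDVR and −0.18 in AbiR (4.88-fold), and the elongase gene ELOVL3 differed by 1.70. The genes at least 2-fold lower were ACSL1, which activates fatty acids (−1.26 ± 0.23, 2 probe sets), DGAT1 of triglyceride synthesis (−1.08) and EHHADH, an enzyme of peroxisomal oxidation (−1.75). EHHADH was the only 1 of 27 fatty acid oxidation genes at least 2-fold apart, 14 of the 27 were above 0, and ACOX2 was highest at 0.80. The detoxifying genes GSTM2 (1.85) and ALDH2 (1.48) were higher and ALDH3B2 (−1.55 ± 0.18, 2 probe sets) was lower.

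Adhesion and matrix genes were divided as well. In a list of 91 genes, mainly of matrix, laminins and integrins, LAMB1, the matricellular gene THBS1 (1.12 ± 1.25, 7 probe sets) and ADAMTS1 were higher. The basement membrane collagen gene COL4A2 (−1.83 ± 0.84, 2 probe sets) was lower, and so was CSTA, a protease inhibitor gene held in the same list. Of the cadherins, PCDH19 (1.29) and DSC2 (1.08 ± 0.998, 4 probe sets) were higher and CDH18 (−2.22) and FAT1 (−1.41) lower. The epithelial factor gene ELF5 was lower by −2.41 ± 1.07 over 2 probe sets and the tight junction gene CLDN3 by −1.06 ± 0.087 over 2. Genes of cell death included GSDME, whose protein forms membrane pores when cleaved (2.15), on the higher side with DAPK1, and TNFSF10, the ligand TRAIL (−1.50 ± 0.51, 3 probe sets), on the lower side. Of 22 fibroblast and endothelial markers and of 17 leukocyte markers 0 were at least 2-fold apart, against 2.01% of all genes. Their medians were 0.075 and 0.20, against 0.054 over all genes.

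By position, genes at least 2-fold apart were unevenly spread. On chromosome 5, 2 of 889 genes were higher and 20 lower in MDVR (0.225% and 2.25%). On chromosome 13, 4 of 401 were higher and 15 lower (0.998% and 3.74%), and on chromosome 6, which holds the main histone clusters, 6 of 1089 were higher and 23 lower. The lower genes of chromosome 13 included the Mediator kinase gene CDK8 (−1.54 ± 0.26, 3 probe sets) and SPRY2, COL4A2 and MYCBP2 (−1.53), while EFNB2, DACH1, ZIC2 (1.54) and LINC00540 (1.44) were the higher ones. The medians of chromosomes 5 and 13 were −0.041 and −0.051. On the X chromosome the higher genes were more numerous, 13 of 696 against 7 lower.

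**Figure D5:**
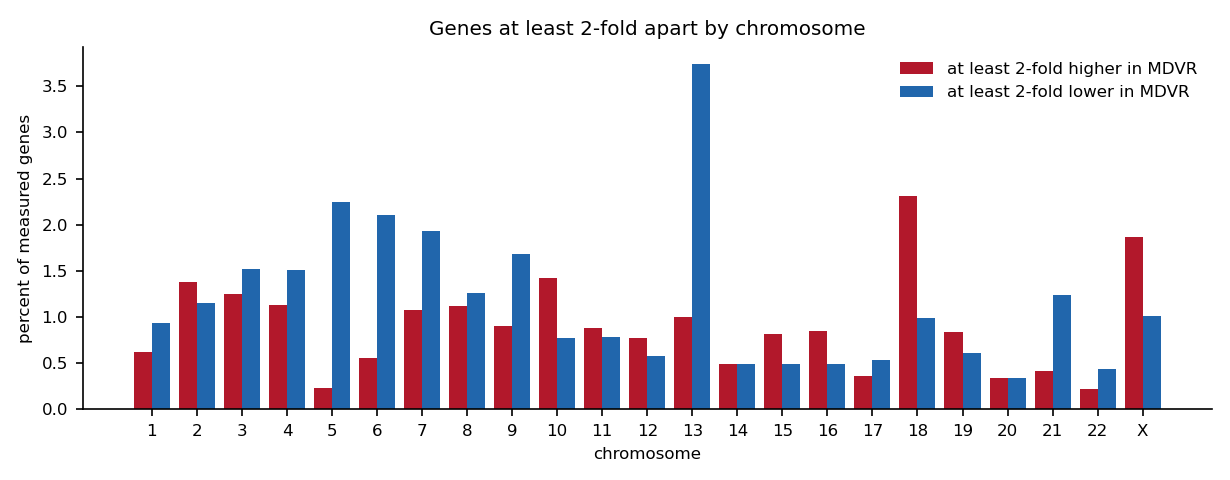
Percent of measured genes at least 2-fold higher (red) or lower (blue) in MDVR than in AbiR, by chromosome. The lower share is largest on chromosome 13, at 3.74%, and the higher share on chromosome 18, at 2.31%.

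Runs of 15 neighbouring measured genes gave a finer view. Over 19368 such runs the median was 0.057, and 99% lay between −0.31 and 0.27. The lowest was the histone run from H2BC4 to H4C8 on chromosome 6, at −0.81, with 14 of 15 genes below 0 and 7 at least 2-fold lower. In this run H3C6 (−1.04) was a further histone gene outside the list. Next came a run from PAXX to TPRN on chromosome 9 at −0.55, with NPDC1 (−1.22), the ectonucleotidase gene ENTPD2 (−1.04) and the peptidase gene DPP7 (−1.01) lowest. A pair of runs lay on chromosome 13, from LINC00463 to POLR1D at −0.52 with CDK8 and LNX2 (−1.21), and from ZMYM5 to MIPEPP3 at −0.47 with EEF1AKMT1 (−1.53) and IFT88 (−1.04). A run from CHCHD3 to STMP1 on chromosome 7 gave −0.46. The highest runs were smaller in size, from GPER1 to NUDT1 on chromosome 7 at 0.41, from SMAD1 to NR3C2 on chromosome 4 at 0.35 and from CCDC126 to CBX3 on chromosome 7 at 0.32. The last of these held GSDME and the polarity gene PALS2 (1.30 ± 0.065, 2 probe sets). Most of these medians depended on the length of the run. Over 25 genes around the same positions the histone run stood at −0.17, the run from LINC00463 to POLR1D at −0.0036, that from PAXX to TPRN at −0.25 and that from GPER1 to NUDT1 at 0.21.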

How the data were processed

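RNA of both sublines had been hybridized as biotinylated cRNA to 1 Affymetrix array each. The authors deposited log2 values made by RMA, version not given in the sources used here, that were further centred within each probe set. RMA shares information between arrays, and its background correction compresses differences of weakly expressed genes. In 53.4% of probe sets a pair of the 3 arrays held values mirrored around 0 within 2e-06, as centring on a median over an even number of arrays would give, so that the centre appears to include an array not analysed here. MDVR and AbiR were that pair in 17.7% of probe sets. Names came from the annotation of the platform, with 99.9% of gene IDs found in RefSeq GRCh38.p14, and 62 control probe sets were set aside. Gene values are means over probe sets annotated to 1 gene. Lists were described by counts and medians, without tests. Members, lists and naming rules were chosen with earlier results of these data known. Named were the 20 highest and 20 lowest genes of several agreeing probe sets, the 12 and 12 of single probe sets, list members past 2-fold or at a list's ends, a fixed set of androgen, steroid and proteostasis genes, and members of the 5 highest and 5 lowest runs, and not all are printed. VCX2, MYCBP2, ZIC2, LINC00540, PATJ, TOX3 and some small values beside a named gene were taken up after their values were seen. Of 3134 listed symbols 2857 were measured. Counting was tested on simulated data. Python 3.11.15, pandas 2.3.3 and matplotlib 3.10.9 were used. The number of arrays limits the precision, and no interval can be given.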

Additional observations from a re-analysis of the deposited data

How the results depend on the processing

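No paired analysis was possible because each line had 1 array and the labels give no replicate numbers, and no replicate could be left out for the same reason. The count of genes at least 2-fold higher in MDVR, 173, lay between 143 and 183 under the 5 alternatives, and that of lower genes, 224, between 206 and 239. Centring the arrays on their median or on the hybridization controls shifted all differences by under 0.1. Of the 68 list medians, 66 moved by less than the SD of the spiked controls under every alternative. When probe sets whose suffix is _s, _x or _a were left out, the HSP70 and HSP110 list moved from 0.063 to 0.19 and the p53 list from 0.17 to 0.020. With runs of 25 genes instead of 15, the runs moved to 0.21 (GPER1 to NUDT1), 0.19 (SMAD1 to NR3C2), 0.13 (TAF5L to FSAF1), 0.18 (BAZ2A to STAT6), −0.17 (H2BC4 to H4C8), −0.25 (PAXX to TPRN), −0.0036 (LINC00463 to POLR1D), −0.24 (ZMYM5 to MIPEPP3) and −0.31 (CHCHD3 to STMP1), since a longer run takes in more genes around the same centre. Of the named genes at least 2-fold apart, 153 had a value under 3 of the gene-level alternatives and 120 when the suffix probe sets were left out, and 0 of those with a value changed sign. Those that fell under 2-fold numbered 8 with the median of probe sets, 8 without the suffix probe sets, 3 with the hybridization controls and 2 with the array median. The signal over background could not be read from centred values.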

Other observations

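Probe sets without a gene symbol here held a different balance of directions. Among 11721 such probe sets, those higher in MDVR by at least 2-fold numbered 34 (0.29%) and those lower 265 (2.26%), against 431 (1.05%) and 797 (1.94%) of the 41091 probe sets with 1 symbol. Among probe sets with 1 symbol the balance also differed by design class, with 255 higher and 599 lower among 26777 without the suffix _s, _x or _a, and 176 higher and 198 lower among 14314 with it. Long non-coding RNA genes had 8 higher and 25 lower of 2658, and protein-coding genes 159 higher and 194 lower of 16521.

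Zinc finger genes of chromosome 19 were singled out when the 2-fold genes were read by name, after their values were seen. Of 234 genes with ZNF symbols on chromosome 19, 8 exceeded 2-fold upwards in MDVR and 1 downwards, with a median of 0.00036. Of 268 elsewhere 3 were higher and 0 lower. Over all 1320 genes of chromosome 19, 11 were higher and 8 lower, and over all genes 0.875% and 1.13%. Because the group was picked by these same values, the counts only describe it.

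A control probe set for 28S ribosomal RNA was 0.85 higher on the MDVR array for its middle part, 0.39 for its 5′ part and 0.12 for its 3′ part, above the largest difference of 0.34 among the spiked controls for the first pair.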
